A study of Caenorhabditis elegans with 71 samples.

Results

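The hedgehog-related genes of Caenorhabditis elegans were described here from poly(A) RNA of whole larvae. Members were all genes of the deposited table named wrt-, grd- or grl- with a number. There were 55 of them among 19120 named genes, namely 10 wrt (warthog), 16 grd (groundhog) and 29 grl (ground-like) genes. Hypochlorite-isolated embryos hatched unfed, so that larvae arrested in their first stage, and hours are counted from plating on OP50 bacteria. Wild type N2 at 20C was sampled every 2 h from 0 to 38 h (20 libraries), and an independent wild type population at 20C every 2 h from 38 to 48 h (6 libraries, called late here). Wild type N2 at 25C was sampled every 1.5 h from 0 to 28.5 h (20 libraries), while lin-4(e912) mutants, kept at 20C, were sampled every 2 h up to 48 h (25 libraries). The product of lin-4 is a microRNA that times the fates of larval cells, and e912 is a loss-of-function allele.

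The worm has no clear counterpart of the Hedgehog ligand or of its signal transducer Smoothened, but it has a large set of secreted proteins that are related to Hedgehog. Warthog and groundhog proteins carry family-specific domains at their start, and some proteins of both groups also carry the Hog domain with which Hedgehog cleaves itself. Ground-like proteins lack it. Many of these genes are known to be active in the epidermis and in glia that shape openings of the cuticle, the outer coat that a larva replaces at each molt. The worm also has patched-related proteins (PTC and PTR), which resemble the Hedgehog receptor, and loss of several genes of both groups disturbs molting.

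Each time point was 1 library, made from a pool of larvae. P-values therefore measure only how single time points scatter, and an effect of genotype or temperature and a difference between the cultures cannot be told apart. Estimated depth was 12.3 to 36.5 M reads per library. In whole larvae, fewer cells of a type and less RNA per cell cannot be told apart. Epidermal markers summed to 91.7 to 1918 RPKM in wild type at 20C, 109.5 to 2186 RPKM at 25C and 95.1 to 1898 RPKM in lin-4, with none of the 6 markers below 1 RPKM in every library. These sums moved widely. In wild type at 20C, rol-6 ran from 0.360 to 1533 RPKM and dpy-7 from 3.93 to 531 RPKM. The other markers moved less there, elt-1 from 6.38 to 19.1, lin-26 from 18.2 to 51.2, nhr-25 from 12.1 to 28.1 and elt-3 from 19.7 to 54.2 RPKM. The sums thus largely follow rol-6 and dpy-7, and their part in the results was not tested. Germline markers went from 21.4 to 252 RPKM in wild type at 20C and reached 557 RPKM in the late libraries, while the late sums of neuronal markers stayed between 206 and 250 RPKM. Per the WBcel235 annotation, exons of 24 members overlap exons of another gene, 23 of them on the other strand, and whether counting used strand is not stated in the sources used here, so such reads cannot be told apart.

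A few libraries stand apart from their neighbours. In the lin-4 series, members differed between the 28 and 32 h libraries by a median of 0.20 (absolute log2), but by 0.62 between 28 and 30 h and by 0.75 between 32 and 34 h. Of 31 members called oscillating in lin-4, 24 broke the order of their neighbours at both 30 and 32 h. The 27 and 28.5 h libraries at 25C differed by a chi-square of 1.29 per gene, close to the 1 that read sampling alone gives. The next closest neighbouring libraries of that series gave 3.885. Results are given below without these libraries where that matters.

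Of 55 members, 36 passed the filter on low values (a mean of 1 RPKM over the libraries of a fit) in all 3 long series. The gene grl-27 passed at 25C but in neither series at 20C. The other 18 passed in none: wrt-7, grd-4, grd-7, grd-8, grd-9, grl-3, grl-9, grl-11, grl-13, grl-17, grl-19, grl-20, grl-23, grl-25, grl-26, grl-28, grl-29 and grl-31. The highest single value among these was 4.25 RPKM for grl-13, followed by 4.01 RPKM for grl-26 and 3.36 RPKM for grl-9. These members are in no count over the 3 long series, while some pass the filter over fewer libraries, as in the late population or the feeding comparison.

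Oscillation was tested with limma as a cosine and sine term beside a smooth trend, over 17 libraries per series, starting at 6 h (20C) or 4.5 h (25C) and ending at 38 h or 28.5 h. A call needed a Benjamini-Hochberg adjusted p below 0.05 over all genes tested and a fitted peak-to-trough range of at least 1 log2. The period that explained most variance over all genes was 11.25 h in wild type at 20C, 7.75 h at 25C and 14 h in lin-4 (13.25 h over 6 to 48 h). In lin-4, maxima of nhr-23 at 14, 26 and 38 h and of wrt-1 at 18, 28 and 40 h lay closer together than the 14 h of the fit. In wild type at 20C, 31 of 36 tested members were called, against 13.7% of all genes tested. In lin-4 it was again 31 of 36, against 13.5% of all genes, and 31 also without the 30 and 32 h libraries. At 25C limma called 17 of 37, against 10.9% of all genes, while 33 of 37 had an unadjusted p below 0.05. Both 20C series called 30 members in common, and 15 members were called in all 3.

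By subfamily, 7 of 9 tested wrt genes, 11 of 12 grd genes and 13 of 15 grl genes were called in wild type at 20C, with the same counts in lin-4. The median range of called members was 2.80 log2 in wild type at 20C, 3.82 log2 at 25C and 2.99 log2 in lin-4. Over all called genes it was 1.83, 1.94 and 1.898 log2. Over all tested members, called or not, the median was 2.60, 2.88 and 2.89 log2, so the 3.82 log2 at 25C holds for the 17 members called there. Within subfamilies the ranges spread from 2.19 log2 (wrt-8) to 4.14 log2 (wrt-1), from 1.18 log2 (grd-15) to 3.40 log2 (grd-6), and from 1.23 log2 (grl-22) to 4.95 log2 (grl-21). The plot of levels by library shows the waves that these numbers summarise.

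**Figure D1:**
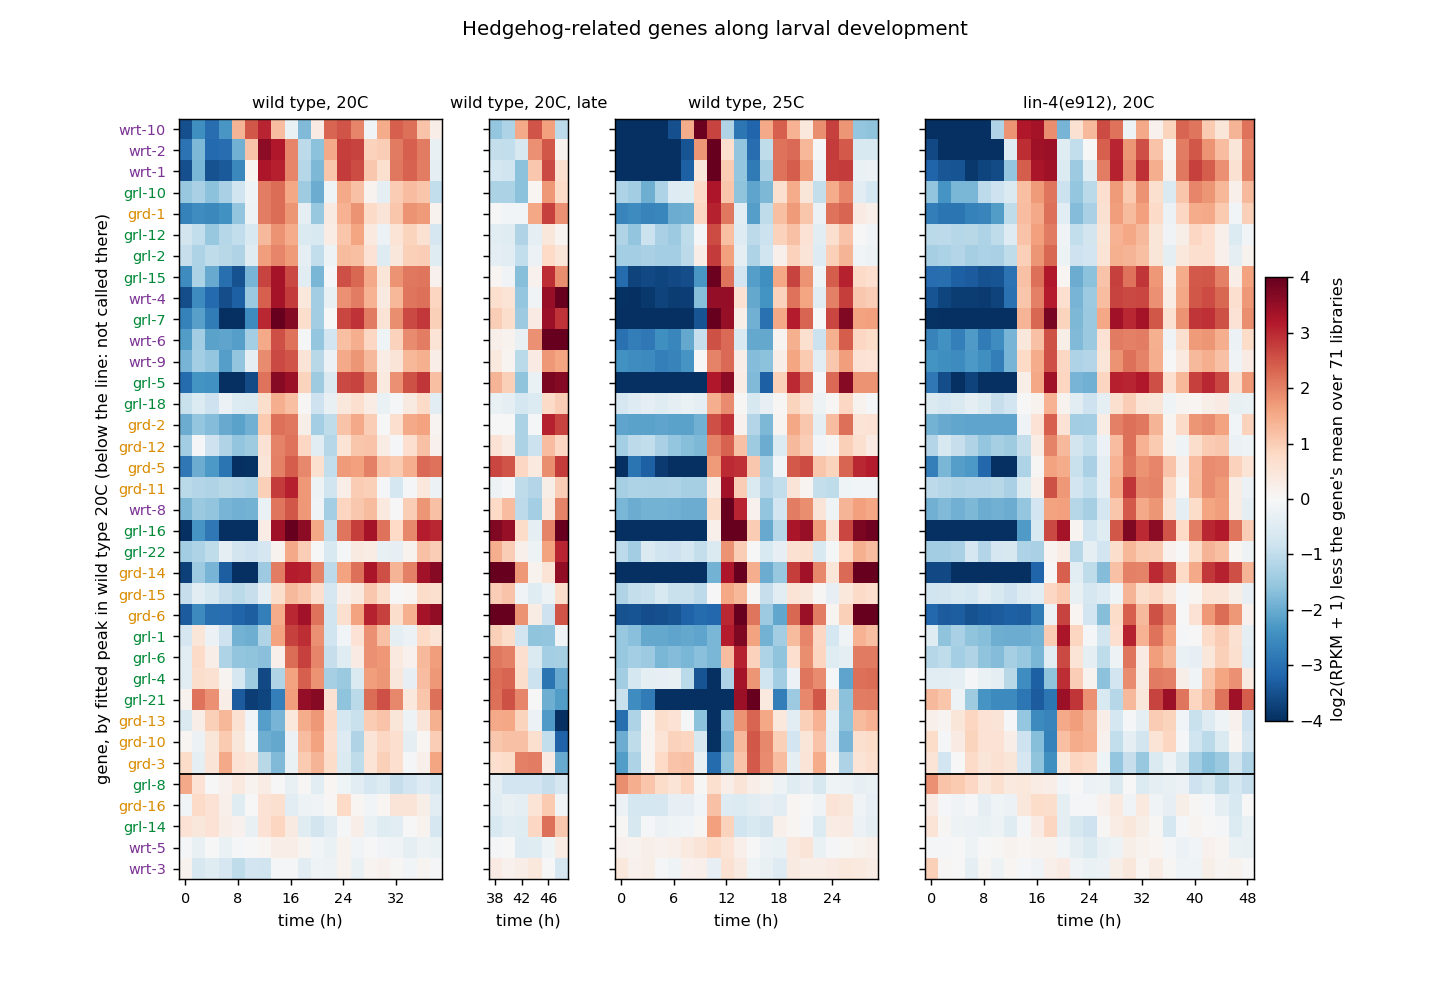
Level of each of the 36 members tested in all series, as log2(RPKM + 1) less the gene's mean over all 71 libraries (colour), by library time in hours in the 4 populations. Genes are ordered by fitted peak in wild type at 20C, names are purple for wrt, orange for grd and green for grl, and the 5 genes below the line were not called there; red bands move down and to the right because later genes in the order peak later.

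No wave was called in any series for wrt-3, wrt-5, grl-8 and grd-16. The gene wrt-5, needed for normal morphogenesis, was between 12.7 and 20.3 RPKM in all 20 wild type libraries at 20C, and its fitted range was 0.17 ± 0.10 log2 (SE). For wrt-3 it was 0.23 ± 0.14 log2, with levels between 4.37 and 11.2 RPKM. For grl-8 it was 0.20 ± 0.15 log2. The gene grd-16 had an adjusted p of 0.0129 by limma in wild type at 20C but a range of 0.87 ± 0.20 log2. At 25C its range was 0.66 ± 0.31 log2 (adjusted p = 0.247, limma) and in lin-4 0.65 ± 0.21 log2 (adjusted p = 0.0532). The gene grl-14, which was called in lin-4 (1.04 ± 0.22 log2), had an adjusted p of 0.00698 in wild type at 20C with a range of 0.98 ± 0.20 log2.

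Among the warthog genes, wrt-1 was at 2.07 RPKM at 0 h, had a median of 62.4 RPKM, and was highest at 324 RPKM at 12 h in wild type at 20C. Local maxima (libraries of at least 1 RPKM above the nearest 2 on either side) followed at 24 h with 241 RPKM and at 34 h with 177 RPKM, and the late population had 217 RPKM at 46 h. Next to the first or last library of a series, the only library on that side was used. At 25C wrt-1 stood at 46.3 RPKM at 9 h and at 731 RPKM at 10.5 h, its highest value anywhere. In lin-4 its maxima stood at 18, 28 and 40 h, with 361, 291 and 230 RPKM. So wrt-1 had 3 waves in each long series, of which the first was the tallest. The fitted range was 4.14 ± 0.81, 4.19 ± 1.17 and 4.49 ± 0.63 log2 in wild type at 20C, at 25C and in lin-4.

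The gene wrt-2, active in the seam cells of the epidermis, ran from 2.11 to 325 RPKM in wild type at 20C (median 55.2 RPKM). It peaked in the same libraries as wrt-1, at 12, 24 and 34 h. At 25C it ran from 0.111 to 570 RPKM and in lin-4 from 0.197 to 290 RPKM.

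The gene wrt-10 had the highest warthog level. Its maxima in wild type at 20C stood at 12, 24 and 32 h, with 653, 458 and 417 RPKM, from a lowest value of 5.97 RPKM at 0 h. At 25C it was highest at 9 h, with 1209 RPKM, and in lin-4 at 16 h, with 804 RPKM. It was already at 203 RPKM at 8 h in wild type at 20C, when wrt-1 was at 4.80 RPKM and wrt-2 at 6.21 RPKM. Its wave thus began before theirs.

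Among the groundhog genes, grd-6 was nearly silent before its first wave. It was at 0.724 RPKM or lower at 4, 6, 8, 10 and 12 h in wild type at 20C, then went past 31.4 RPKM (14 h) to 117 RPKM (18 h). The next local maximum was 97.2 RPKM at 28 h, and the highest library was the last, with 134 RPKM at 38 h. At 25C the table has no value for it at 3 h, taken as 0, and 311 RPKM at 13.5 h. Its fitted range was 3.40 ± 0.46 log2 in wild type at 20C, 5.07 ± 0.75 log2 at 25C and 2.86 ± 0.66 log2 in lin-4.

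The gene grd-14 was lowest at 10 h with 0.400 RPKM and reached 243 RPKM by 16 h, with a median of 97.2 RPKM and a highest value of 346 RPKM at 38 h in wild type at 20C. The late population had it at 545 RPKM at 38 h, then lowest at 44 h, with 29.4 RPKM. In lin-4 its maxima stood at 20, 34 and 44 h, with 143, 220 and 231 RPKM. The gene grd-13 was high early, with 184 RPKM at 6 h, lowest at 12 h with 14.8 RPKM, and high again at 20 h with 243 RPKM and at 30 h with 160 RPKM.

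Among the ground-like genes, grl-21 had the largest range in wild type at 20C, 4.95 ± 0.91 log2. It was lowest at 10 h with 1.32 RPKM and highest at 20 h with 392 RPKM, and its next maximum was 187 RPKM at 30 h. It also had 141 RPKM at 2 h. The gene grl-7, whose product lies in extracellular matrix of the cuticle, was lowest at 8 h with 0.839 RPKM and highest at 14 h with 640 RPKM, with later maxima at 26 and 36 h of 299 and 283 RPKM. At 25C it likewise had no value at 7.5 h and 784 RPKM at 10.5 h. The gene grl-4 was between 27.1 and 120 RPKM over the first 10 h, lowest at 12 h with 5.12 RPKM, and highest at 18 h with 388 RPKM. Their first waves thus followed one another, grl-7 at 14 h, grl-4 at 18 h and grl-21 at 20 h. Outside these 3, grl-16 reached the highest level of any member, 1428 RPKM at 12 h at 25C, where it had no value at 7.5 h. In wild type at 20C its lowest and highest values were 0.613 RPKM at 10 h and 1036 RPKM at 16 h, and the late population reached 1146 RPKM at 48 h.

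Phase was read as the fitted peak in percent of the cycle after the peak of nhr-23, which encodes a nuclear receptor that larvae require to molt and was called in all 3 long series. In wild type at 20C the members lay between 7.58% (wrt-10) and 73.2% (grd-3) of the cycle, and none peaked later in the cycle. The mean peak of the called wrt genes was 24.6%, that of grl genes 38.6% and that of grd genes 48.8%. In lin-4 the means were 26.7, 37.3 and 46.8%, in the same order. At 25C they were 24.6% for wrt, 55.3% for grl and 48.8% for grd genes, so that grl came last, over the fewer members called there. With the cycle cut into 3 equal parts from the nhr-23 peak, wrt genes numbered 6, 1 and 0, grl genes 7, 5 and 1, and grd genes 2, 6 and 3, and these counts were the same in lin-4. At 25C they were 2, 1 and 0 for wrt, 1, 6 and 1 for grl, and 0, 6 and 0 for grd genes. The concentration of the peaks (1 when all coincide, 0 when evenly spread) was 0.826 for wrt, 0.564 for grl and 0.558 for grd genes in wild type at 20C, and 0.869, 0.651 and 0.505 in lin-4. At 25C the order was reversed, with 0.520, 0.745 and 0.939. No test of these differences between subfamilies was made, since members are not replicates. The shares of all oscillating genes in the 3 parts of the cycle are not given here. Whether these places, or the lack of peaks late in the cycle, are particular to the members was therefore not tested.

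The order of single members was as follows in wild type at 20C. Standard errors are those of the member's own fitted peak and leave out that of nhr-23, 3.40% of the cycle. After wrt-10 came wrt-2 at 18.7 ± 3.0% and wrt-1 at 20.3 ± 2.9% (SE), beside lin-42, which is related to the fly clock gene period, at 18.7%. A dense group followed from 21.9% (grl-10) to 30.9% (grd-2). It held grd-1, grl-12, grl-2, active in the excretory duct and pore, grl-15, wrt-4, grl-7, wrt-6, wrt-9, grl-5 and grl-18, which patterns matrix at glial pores, and the standard errors of genes next to each other in this order overlap. The molting gene mlt-10 was at 28.1%. Then came grd-12 at 37.7%, grd-5, grd-11 and wrt-8 at 40.2 to 41.7%, and grl-16 at 43.4%. The members grl-22, grd-14, grd-15, grd-6 and grl-1 lay between 48.0 and 54.9%, grl-6 at 60.4%, grl-4 at 63.8% and grl-21 at 66.7%. The last were grd-13 at 69.8 ± 2.5%, grd-10 at 72.9 ± 2.5% and grd-3 at 73.2 ± 2.7%.

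**Figure D2:**
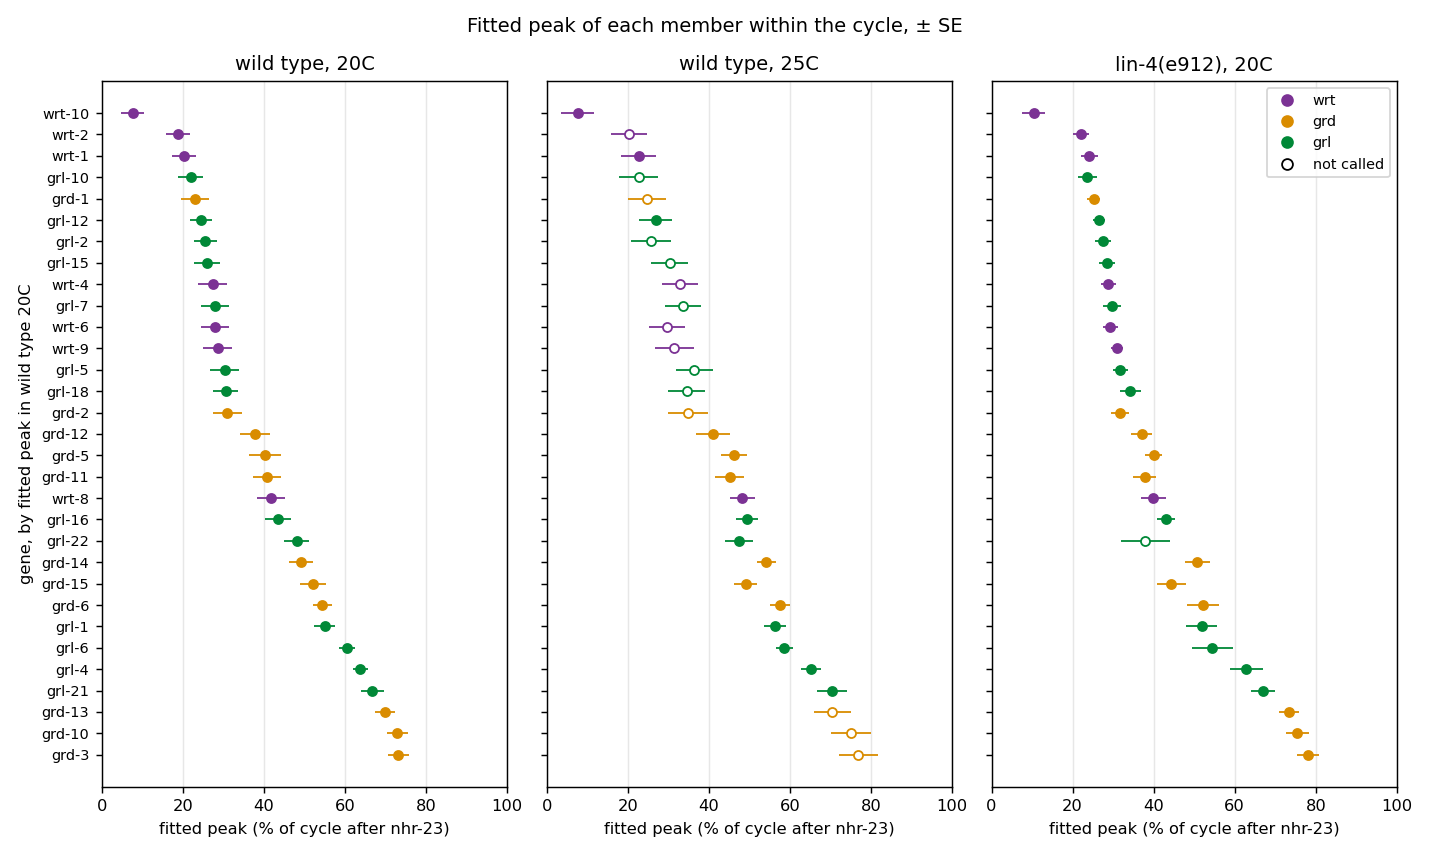
Fitted peak of the 31 members called in wild type at 20C (points, ± SE), in percent of the cycle after the nhr-23 peak, in the 3 long series. Bars leave out the error of the nhr-23 peak. Filled points were called in that series and open ones were not; the diagonal from wrt-10 at the top to grd-3 at the bottom appears in all 3.

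By the fitted peaks, members kept their place against nhr-23, whose own peak had a standard error of 3.40% in wild type at 20C and 2.77% at 25C. The single libraries of the first wave, given below in hours, did not all keep their distance from nhr-23 in lin-4. Among the 30 members called in wild type at 20C and in lin-4, the place changed by a median of 1.58% of the cycle, with extremes of -7.78% (grd-15) and 4.90% (grd-3). Among the 16 called in wild type at both temperatures, the median change was 2.85%, from -2.92% (grd-15) to 6.53% (wrt-8). Fitted peaks were also compared without nhr-23, with hours counted from feeding and each peak taken as a fraction of its own series' period. On that scale members differed by a mean of -7.30% of the cycle in lin-4, and all 1393 genes called in both series by -8.65%. At 25C against 20C the members differed by 19.9% and all 1125 genes by 19.5%. Members and oscillating genes at large thus had differences of like size. Size and sign of these values depend on the period fitted in each series, so they do not give earlier or later peaks in hours.

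In hours, the first wave of the members came later in lin-4. Its top was taken as the highest library from 8 to 20 h in wild type at 20C, from 8 to 24 h in lin-4 and from 6 to 15 h at 25C, windows set with the values known and leaving out earlier maxima such as those of grd-13, grd-3 and grd-10 at 6 h in both 20C series. Of 31 members called in wild type at 20C, 30 had this top in a later library in lin-4, and grl-21 had it at 20 h in both. The median delay was 4 h. It was 6 h for wrt-1 and wrt-2 and 2 h for 10 members, among them grd-6 and grl-4. All 15 members of the early part of the cycle were delayed by 4 or 6 h and the 4 of the late part by 0 or 2 h, at a library spacing of 2 h. The landmarks nhr-23 and lin-42, like wrt-1, were highest at 12 h in wild type at 20C. In lin-4 nhr-23 was highest at 14 h, and lin-42 and wrt-1 at 18 h. The highest lin-4 library of mlt-10, at 32 h, lies outside the window. The share of all oscillating genes with a later top is not given here, and whether the delay is particular to the members was not tested. At 25C the tops within the window lay at 9 h for wrt-10 and at 10.5 to 15 h for the others.

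Ranges did not pass a test of their difference between series. For lin-4 less wild type at 20C, none of 32 members passed in either direction, where 0.828% of genes were larger and 0.244% smaller in lin-4. For 25C less 20C, none of 31 members passed, where 0.05% of genes were larger and 0% smaller at 25C. No member had an unadjusted p below 0.05 in either comparison. The largest gains at 25C were estimated for grd-6 (5.07 ± 0.75 against 3.40 ± 0.46 log2) and grd-14 (4.79 ± 0.67 against 3.20 ± 0.54 log2), the largest range there being that of grl-16, 5.31 ± 0.88 log2.

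**Figure D3:**
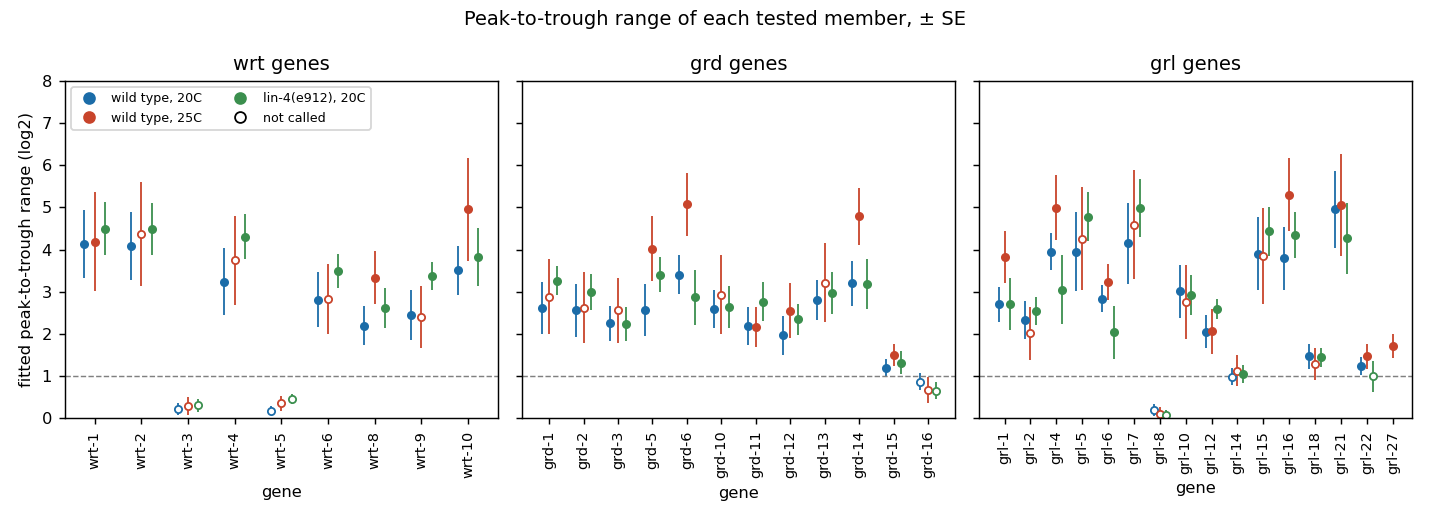
Fitted peak-to-trough range (log2, ± SE) of every tested member in the 3 long series, by subfamily. Open points were not called and the dashed line marks a range of 1 log2; wrt-3, wrt-5 and grl-8 lie far below it in all 3 series, and at 25C most open points have ranges like those of the filled ones beside them but longer bars.

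The lower count at 25C followed the place in the cycle. Of 15 members that peaked in the early part of the cycle in wild type at 20C, 3 were called at 25C, and the other 12 had adjusted p-values from 0.0512 to 0.0786 by limma. All 12 members of the middle part were called, and so was 1 of 4 in the late part. The median range of the early 15 was 3.01 log2 at 20C and 2.88 log2 at 25C, with median standard errors of 0.63 and 0.88 log2. Waves at 25C were also unevenly spaced, with wrt-1 highest at 10.5, 19.5 and 25.5 h, while the fit used 1 period. The count at 25C rested on single libraries: 32 members were called without the 4.5 h library, 32 without that of 27 h, 27 without that of 24 h and 11 without that of 9 h.

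Members that lie next to each other on a chromosome, per the WBcel235 annotation, were compared next. On chromosome IV, grd-13, grd-3 and grd-10 are neighbours on the same strand and peaked together. In wild type at 20C, grd-3 peaked 3.37 ± 3.68% of the cycle after grd-13, and grd-10 lay at -0.27 ± 3.68% from grd-3. In lin-4 these differences were 4.73 ± 3.64% and -2.62 ± 3.90%. All 3 were high soon after feeding, at 6 h in wild type at 20C, with 184, 82.4 and 194 RPKM, when wrt-1 was at 2.43 RPKM and grd-6 at 0.397 RPKM. All 3 were lowest at 10.5 h at 25C, with 2.15, 2.44 and 5.03 RPKM, in the library in which wrt-1 was highest. In the late population they parted, with grd-3 highest at 44 h (119 RPKM) and grd-13 at 40 h (209.7 RPKM).

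On chromosome II, wrt-1 and wrt-10 are neighbours on opposite strands, and they did not peak together. The peak of wrt-10 lay at -12.7 ± 4.1% of the cycle from that of wrt-1 in wild type at 20C, at -15.1 ± 5.9% at 25C and at -13.6 ± 3.5% in lin-4. On chromosome X, grd-4 neighbours grd-14 but stayed at or below 0.879 RPKM in every library. On chromosome V, grl-8 and grl-9 are neighbours, and both were highest at 0 h in the 3 long series. Exons of both overlap the noncoding RNA gene ZC487.8 on the other strand, and those of grl-9 also overlap ZC487.1. Since use of strand is not stated, reads of these genes cannot be told apart.

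**Figure D4:**
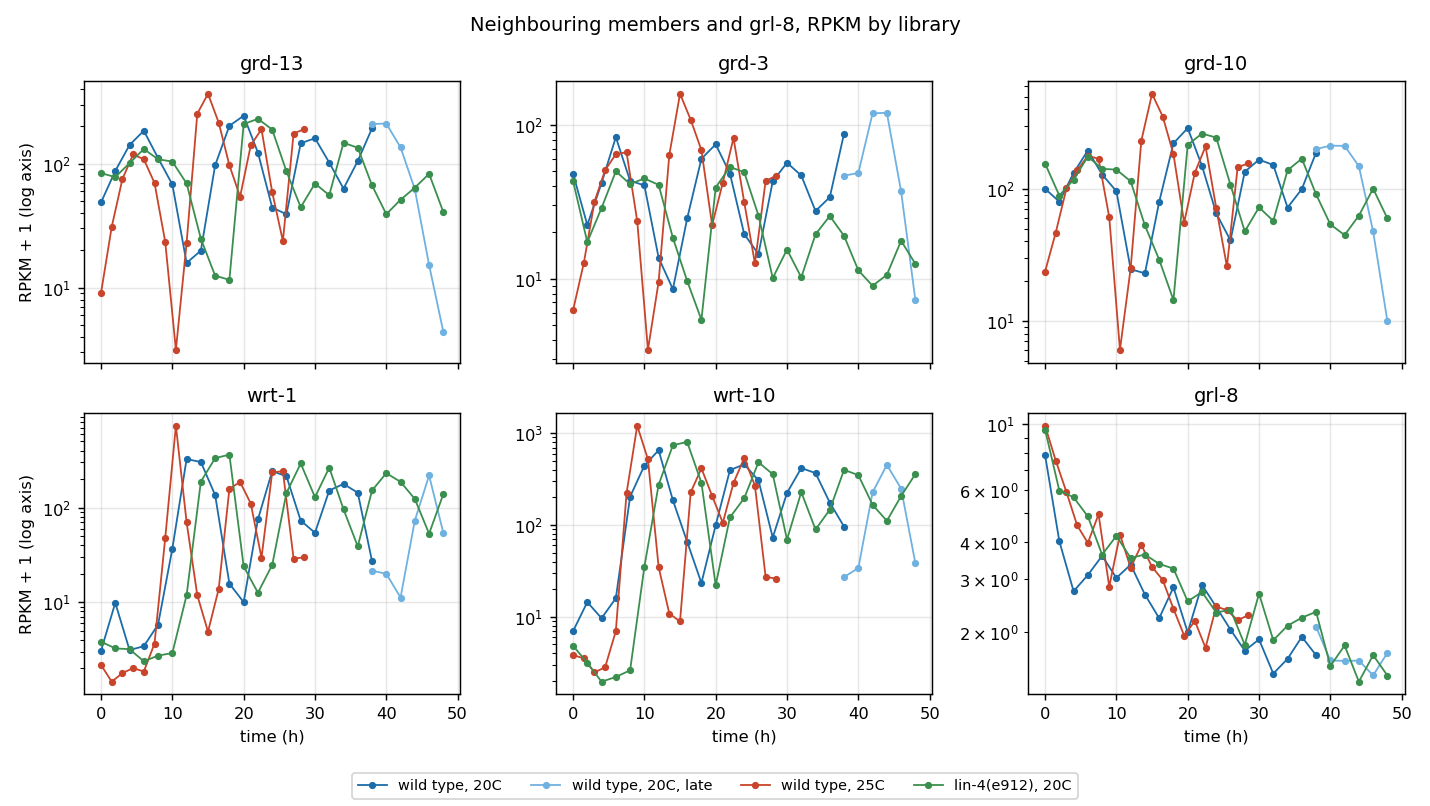
RPKM + 1 (log axis) by library time in hours for the neighbours grd-13, grd-3 and grd-10, the neighbours wrt-1 and wrt-10, and grl-8, in the 4 populations (lines). The 3 grd genes have most highs and lows in the same or neighbouring libraries of the long series. In wild type at 20C, though, grd-3 is highest at 38 h and grd-13 and grd-10 at 20 h. The gene wrt-10 turns up before wrt-1, and grl-8 starts near 9 RPKM at 25C and declines without waves.

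Slow changes were tested as the linear term of time over the same libraries, with the cosine and sine terms kept. Of 36 members in wild type at 20C, 11 rose and 1 fell, against 9.45% and 16.4% of all genes. At 25C, 18 rose and 1 fell of 37, against 11.1% and 16.7%. In lin-4, 27 rose and 2 fell of 36, against 9.2% and 15.4%. The window includes the libraries before the first wave, which last until 12 h in lin-4. The largest rises in wild type at 20C were those of grd-14 (6.00 ± 1.23 log2 over the window), grd-6 (5.69 ± 1.13), grl-21 (5.39 ± 1.18) and grl-16 (5.22 ± 1.64). The count at 25C was 10 without the 4.5 h library.

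The gene grl-8 fell in all 3 series. In wild type at 20C it was at 6.86 RPKM at 0 h, had a median of 1.54 RPKM and ended at 0.664 RPKM. The change over the fitted window was -1.18 ± 0.16 log2 there, -1.21 ± 0.21 log2 at 25C and -1.16 ± 0.17 log2 in lin-4, with adjusted p-values of 1.6e-05, 0.000214 and 2.31e-05 by limma. In lin-4, grd-3 also fell, by 1.11 ± 0.44 log2, a call that ended without any 1 of the 6, 12, 14, 28, 32, 34, 36 or 38 h libraries. Without the 6 h library the fall of grl-8 in lin-4 was just short of the 1 log2 that a call needed, and with median-of-ratios scaling it was -0.92 log2.

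The response to feeding was read as 6 h (4.5 h at 25C) less 0 h in each of the 3 long series, with series as pairs. Of 23 members tested, 1 rose and 1 fell, against 8.86% and 10.1% of all genes. The gene that rose was grd-13, by 2.09 ± 0.55 log2 (adjusted p = 0.032, limma). Before and after feeding it was at 47.7 and 184 RPKM in wild type at 20C, at 8.05 and 118 RPKM at 25C, and at 83.0 and 130 RPKM in lin-4. It was higher in all 3 fed libraries, by unequal amounts, and its adjusted p was 0.0959 without the wild type 20C pair and 0.0731 when fed larvae were taken at 4 h (3 h at 25C). It also missed the threshold with a pseudocount of 0.1 (0.0548), without the filter (0.0593) and unpaired (0.0677). The gene that fell was grl-8, by 1.14 ± 0.15 log2 (adjusted p = 0.0053, limma). Its neighbour grl-9 had -0.90 ± 0.19 log2, which passed on p but not on size. Exons of both overlap ZC487.8, so these falls may not be separate.

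Genotypes were compared at equal times, pairing libraries by hour. From 6 to 38 h none of 36 members was higher in lin-4 and 2 were lower, against 0.373% and 0.77% of all genes. The members were grd-14, at -1.82 ± 0.51 log2 (adjusted p = 0.0105, limma), and grd-6, at -1.44 ± 0.48 log2 (adjusted p = 0.0259). At 14 h grd-14 was at 114 RPKM in wild type and 0.652 RPKM in lin-4, and grd-6 at 31.4 and 0.185 RPKM. The tops of their first waves were also lower in lin-4: 143 RPKM at 20 h against 243 RPKM at 16 h for grd-14, and 74.7 RPKM at 20 h against 117 RPKM at 18 h for grd-6. Over 18 to 38 h, after the first rise in both genotypes, the differences were -1.22 and -1.16 log2 with adjusted p-values of 0.0951 and 0.125, so neither passed. The call of grd-6 was also lost without the 14 h pair (adjusted p = 0.0512) and without the 38 h pair (0.0504). Without pairing by hour, neither gene passed, with adjusted p-values of 0.184 and 0.226. Without the 30 and 32 h libraries 3 members were lower, grl-16 being added.

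From 38 to 48 h lin-4 was compared with the late wild type population. No member passed limma's test in either direction, where 1.19% of genes were higher and 2.65% lower, and 2 members had an unadjusted p below 0.05. These were grd-3, at -1.82 ± 0.61 log2, and grl-27, at -1.85 ± 0.70 log2. Libraries were paired by hour, yet deviations correlated by over 0.1 in only 1 of 6 pairs, and unpaired the fit gave 1 lower member. Without the 46 h pair 2 members were higher, and without the 48 h pair 1 was lower.

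Temperatures were compared after stretching time at 25C by a factor of 1.3, the one with the highest mean correlation with libraries at 20C. It leaves the 25C period of 7.75 h short of 11.25 h, at which the cosine was fitted for both. Waves out of step and a difference in level therefore cannot be told apart here. None of 37 members was higher at 25C and 1 was lower, against 1.18% and 0.513% of all genes. The gene was wrt-2, at -1.21 ± 0.35 log2 (adjusted p = 0.00518, limma). Its highest library was higher at 25C (570 against 325 RPKM) and its median was lower (16.8 against 55.2 RPKM), and its levels over the first 6 h at 25C, from 0.111 to 0.356 RPKM, lay below every wild type library at 20C. The call of wrt-2 was lost with a spline of 6 degrees of freedom in place of the cosine (-1.26 log2, adjusted p = 0.0595). Without the 24 h library at 25C, 4 members were called lower, and 3 without that of 25.5 h. Of the members that peak near it, wrt-1 had -0.95 ± 0.33 log2.

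The late wild type population covers less than 1 cycle at 20C, so it allows only a fit of cosine and sine at 11.25 h over 6 libraries, with no trend. Of 37 members 6 were called, against 3.42% of all genes, and 32 had an unadjusted p below 0.05. The 6 were grd-14, wrt-10, grl-1, grd-15, grl-26 and grd-6. That count was 0 without any 1 of the 40, 42, 44 or 46 h libraries, 3 without that of 48 h and 21 without that of 38 h. Where both wild type 20C populations were sampled, at 38 h, the 33 members above the filter differed by a median of 0.11 log2. Of these, 2 differed by over 1 log2, as did 1.54% of all genes: wrt-10 was lower in the late population (26.2 against 95.1 RPKM) and grl-27 higher (7.74 against 3.26 RPKM).

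The highest levels in the 2 wild type 20C populations were set side by side. Of the 37 tested there, the highest late library exceeded the highest library of the first wild type population by over 1 log2 in 6 members, and lay over 1 log2 below it in 6. Over all genes that passed the same filter, the highest late library was higher in 9.41% and lower in 22.1%. That filter used the late libraries alone, so the counts favour members that are high there. It let in grl-26 and grl-27, which did not pass in the first population, and left out grl-8, grl-9 and grl-11. The highest values of these last were 6.86, 3.36 and 1.59 RPKM in the first population. In the late one they were 1.07, 0.161 and 0.124 RPKM. The gene grl-27 had 50.2 RPKM at 48 h, against at most 3.26 RPKM in the first population and 0.793 RPKM in lin-4. For wrt-6 the values at 46 and 48 h were 231 and 191 RPKM, against at most 59.6 RPKM in the first population. For wrt-4 the late highest value was 373 RPKM at 48 h, against 167 RPKM. For grl-22, grl-14 and grl-26 the late highest values were 20.7, 9.48 and 4.01 RPKM, against 6.56, 3.18 and 0.583 RPKM. In the lin-4 libraries from 38 to 48 h all 6 stayed below their late wild type highs. Of these, wrt-6 reached 33.8 RPKM and wrt-4 100.2 RPKM, both at 42 h. The 6 were picked for their late wild type highs, so lower values elsewhere are no test of genotype. No member was called lower in lin-4 from 38 to 48 h. First waves also came a median of 4 h later in lin-4, so libraries of equal hour may not match.

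The members that were lower in the late libraries included grd-11 and grl-1. For grd-11 successive maxima in the first wild type population (16, 26 and 36 h) were 20.7, 4.07 and 2.32 RPKM. In lin-4 (18, 30 and 42 h) they were 13.6, 17.1 and 8.31 RPKM. For grl-1 they were 33.7, 14.8 and 6.82 RPKM in wild type and 41.8, 36.7 and 7.96 RPKM in lin-4. Wave height declined in wild type, while in lin-4 the second wave of grd-11 was the highest; the 30 h library that carries it is one of the pair that broke the order of its neighbours. No test of wave height was made, since each wave is 1 or 2 libraries.

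**Figure D5:**
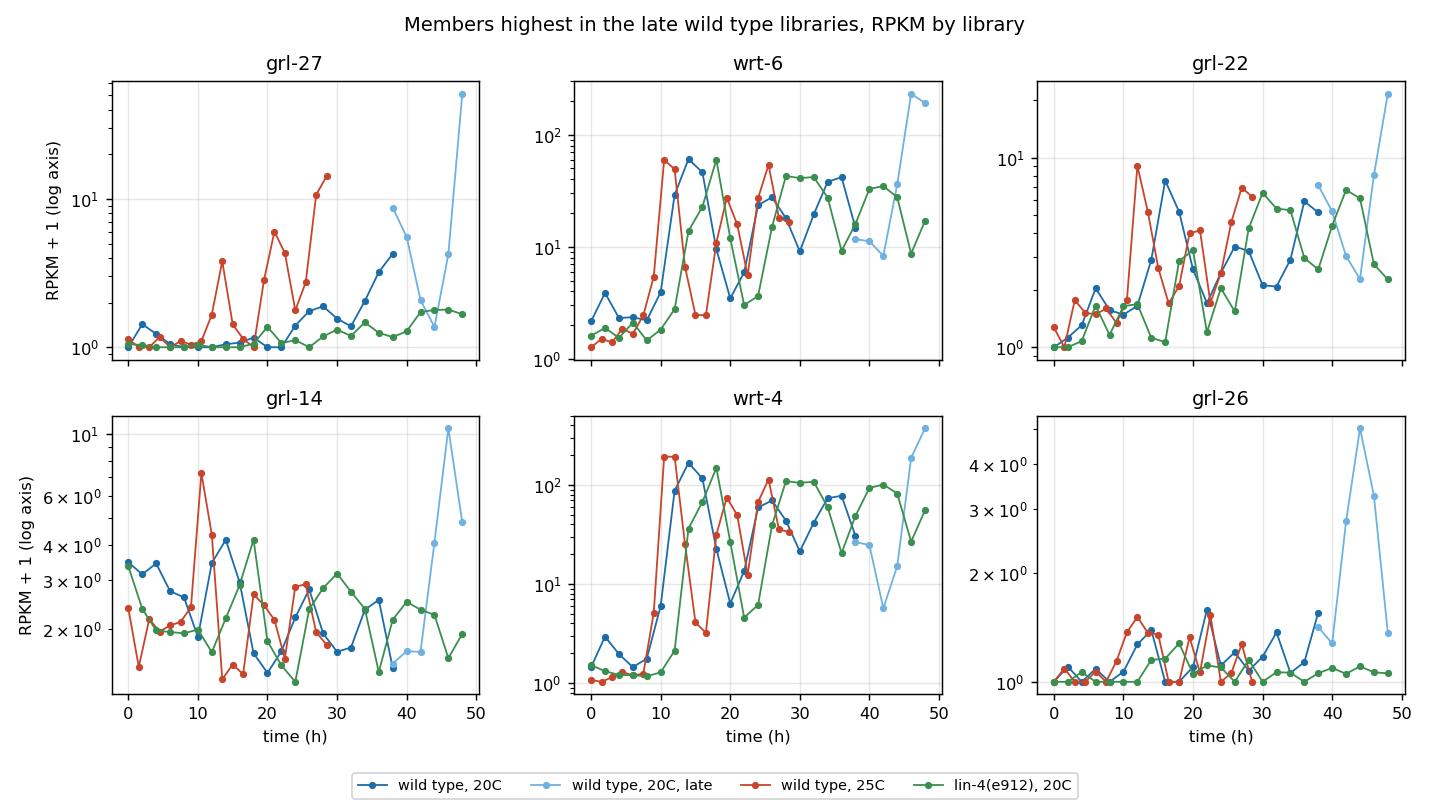
RPKM + 1 (log axis) by library time in hours for the 6 members whose highest late library exceeded that of the first wild type population by over 1 log2, in the 4 populations (lines). The late wild type libraries (light blue) rise above all other series, with grl-27 at 50.2 RPKM and wrt-6 at 231 RPKM.

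The other genes of the pathway list were read in the same way. The list holds qua-1 and hog-1, further hedgehog-related genes, the receptors ptc-1, ptc-2 and ptc-3, the patched-related daf-6, che-14, ptd-2 and the ptr genes, the sterol transporter relatives ncr-1 and ncr-2, and tra-1, the worm's Gli-type transcription factor. Of 31 tested in wild type at 20C, 21 oscillated, 16 of them ptr genes of 22 tested, against 13.7% of all genes. In lin-4 it was 21 of 30, against 13.5%, and at 25C 11 of 31, against 10.9%. Of the receptors, ptc-3 was called in wild type at 20C (2.14 ± 0.41 log2), and ptc-1 (0.28 ± 0.12 log2) and ptc-2 (0.20 ± 0.12 log2) were not, nor was tra-1 (0.21 ± 0.12 log2).

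The places in the cycle of these genes spanned those of the members. In wild type at 20C, ptr-10 at 6.68% lay beside wrt-10 at 7.58%, and qua-1, needed for molting, at 20.1% beside wrt-1 at 20.3%. The values of ptc-3 and che-14 were both 27.0% and that of hog-1 29.6%, within the dense early group, and ptr-18, which clears the product of grl-7, was at 30.5% beside grl-7 at 27.9%. The genes ptr-12 at 71.01% and ptr-8 at 75.5% lay beside the grd-13 group. In slow changes, 2 of 31 rose and 5 fell in wild type at 20C, against 9.45% and 16.4% of all genes. At 25C 7 of 31 rose and 1 fell, against 11.1% and 16.7%. In lin-4 17 of 30 rose and 1 fell, against 9.2% and 15.4%. Upon feeding, 2 rose and 4 fell of 28, against 8.86% and 10.1%. The counts in wild type at 20C and upon feeding were near these shares. None of 30 passed the comparisons of lin-4 with wild type or of 25C with 20C, and none passed a test of range differences. At most 2.65% of all genes passed any of these in a direction.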

How the data were processed

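Per the labels' protocols, poly(A) RNA of synchronised larvae was sequenced. The deposited table gives RPKM computed by the authors. The submitters' processing notes name BWA 0.5.9, but build, annotation and strandedness are not stated in the sources used here. Of 21777 entries, 2643 with identifiers starting in RIT and 11 others without a gene name (1.58 to 3.03% of summed RPKM) and 3 duplicates were left out, and cells without a value were taken as 0. Depth came from the steps of low values, of which 84.1% of genes were whole multiples of 1 read within a tolerance of 0.01. With R 4.3.3, limma 3.58.1 was fitted to log2(RPKM + 1), so changes of low genes are understated, over genes with a mean of at least 1 RPKM in the fit. Calls needed a Benjamini-Hochberg adjusted p below 0.05 over all genes tested and 1 log2, and range differences an adjusted p alone, by a delta method with a normal approximation. Periods were those explaining most variance between 4 and 12 h (16 h in lin-4). Members, gene lists and tests were chosen with earlier results of these data known. Full values are given for the 3 members of each subfamily with the largest range in wild type at 20C and for members called in the lin-4, temperature and arrest comparisons. Other genes were chosen after their values were seen. In lin-4 against wild type, libraries of equal hour were paired. Deviations from group means correlated within 14 of 17 pairs by over 0.1 (median 0.441), within 1 of 6 pairs after 38 h, and within 3 of 3 fed and arrested pairs. Scripts were tested on simulated data.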

Additional observations from a re-analysis of the deposited data

Results flagged for a closer look

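Within the 6 late wild type libraries, 4 of 37 members had 1 library far from the other 5, and chance flags about 1 in 20 such groups. These were wrt-1 at 217 RPKM at 46 h, grl-14 at 9.48 RPKM at 46 h, grl-22 at 20.7 RPKM at 48 h and grl-27 at 50.2 RPKM at 48 h. The 6 libraries are successive times and not repeats of 1 time.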

How the results depend on the processing

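Members called in the trend, genotype, temperature and feeding comparisons kept their direction under every alternative run. A fitted range is never negative, so for oscillation such a check could not fail and only the counts are given. The members called oscillating in wild type at 20C numbered 20 with a period 1 h longer and 25 to 32 when 1 library was left out. At 25C they numbered 4 with a linear trend, 0 over all time points, 0 with a period 1 h shorter, 8 with one 1 h longer, and 11 to 32 without 1 library. In lin-4 they numbered 29 to 32 without 1 library. In the late population they numbered 3 without the filter on low values, 32 over both wild type 20C populations from 6 to 48 h, and 0 to 21 without 1 library.

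Without 1 library, 8 to 15 members rose over time in wild type at 20C, 10 to 21 at 25C and 22 to 27 in lin-4. Those that fell numbered 2 with a pseudocount of 0.1 and 0 with a mean of at least 5 RPKM in wild type at 20C, and 2 without the filter and 0 with at least 5 RPKM at 25C. In lin-4 they numbered 1 with a pseudocount of 0.1, without the filter, with at least 5 RPKM or with a period 1 h longer, 0 with median-of-ratios scaling, and 0 to 2 without 1 library.

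Fitted without the replicate block, that is unpaired, lin-4 against wild type gave 0 lower members from 6 to 38 h and 1 from 38 to 48 h, and feeding gave 0 higher members. From 6 to 38 h, 0 members were lower over 18 to 38 h only (chosen after seeing the data), 3 without the 30 and 32 h libraries (likewise), and 1 to 2 without 1 time point. From 38 to 48 h, 0 to 2 were higher and 0 to 1 lower without 1 time point. At 25C against 20C, a pseudocount of 0.1 gave 1 higher and 4 lower members, median-of-ratios scaling and a stretch 0.05 higher gave 2 lower each, and leaving out 1 library gave 1 to 4 lower. Upon feeding, 0 members rose with a pseudocount of 0.1, without the filter, or with fed larvae at 4 h (3 h at 25C), and 2 with median-of-ratios scaling, and 4 fell with a pseudocount of 0.1. Without 1 pair 0 to 2 rose and 1 to 4 fell. Of range differences, 1 member was larger at 25C without the filter. The causes of these changes were not tested. Precision is limited by 1 library per time point.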

Other observations

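At 2 h in wild type at 20C, 21 members had a local maximum, against 3 at 2 h in lin-4 and 5 at 1.5 or 3 h at 25C. Among them were grl-21 at 141 RPKM, grl-4 at 120 RPKM, grl-16 at 11.3 RPKM, grd-14 at 9.18 RPKM and wrt-1 at 8.84 RPKM, in each case below the first wave of the same gene. At 2 h and 1.5 h only the 0 h library lies before. The share of all genes with such a maximum was not counted. Some genes outside the members, namely ptr-22, nos-2 and pha-4, were also highest in the 2 h library of wild type at 20C. Whether the count is particular to the members was not tested. At 0 h, grd-10, grl-4, grd-13, grd-3 and grl-21 were the highest members in wild type at 20C, with 99.3, 53.2, 47.7, 47.3 and 33.7 RPKM. In lin-4 they had 155, 54.6, 83.0, 42.3 and 76.2 RPKM and were again the highest. At 25C they had 22.6, 27.5, 8.05, 5.22 and 15.8 RPKM, and wrt-5, with 18.7 RPKM, stood above grl-21.

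Of the 55 members, 27 lie on chromosome V, 11 on IV, 9 on X, 4 on III and 2 each on I and II, per the WBcel235 annotation. Over 6 to 38 h in lin-4, the period that explained most variance was 13.75 h without the 30 and 32 h libraries and 14 h with them.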
